A study of Arabidopsis thaliana with 4 samples.

Results

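Transcripts of 9 WRKY transcription factor genes linked to defence and leaf senescence were followed in Arabidopsis thaliana (ecotype Columbia) rosette leaves with and without feeding whitefly nymphs. The insect was the silverleaf whitefly, type B of Bemisia tabaci, whose nymphs settle on the leaf and draw phloem sap through fine mouthparts. The genes were WRKY70, WRKY54, WRKY38, WRKY46, WRKY53, WRKY18, WRKY40, WRKY33 and WRKY6, each read by 1 probe set of the Affymetrix ATH1 array and chosen by probe set identifier, 9 of 22746 probe sets once controls were left out. The platform annotation used here names WRKY53 and WRKY6; the names of the other 7 came with the list of identifiers. On infested plants 100 adult whiteflies were released per plant at an age of 21 days, and the adults were taken away 7 days later. Leaves were collected 28 days after release from infested plants and from uninfested plants of matched development, all 7 weeks old and grown with 8 h of light per day; neither group carried a mutation or a transgene. Each group has 2 arrays, and each array holds RNA pooled from 2 replicate experiments, 20 plants in all, so the spread between arrays is a spread between pools.

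WRKY proteins bind DNA through a domain that holds the peptide for which they are named and a zinc finger, and they recognise the W box, a short promoter element. Many WRKY genes are themselves induced by salicylic acid or by microbial signals, and their products both activate and repress defence genes and one another. In leaves, the family is known for setting the balance between salicylic acid and jasmonic acid responses and for timing senescence. Among the 9, WRKY70, WRKY54, WRKY38, WRKY46 and WRKY53 belong to group III of the family, WRKY18 and WRKY40 to group IIa, WRKY6 to group IIb, and WRKY33 to group I, whose members carry a pair of WRKY domains.

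All 9 probe sets read higher on both infested arrays than on both uninfested arrays, which 33.8% of the 13648 tested probe sets also did. Of the 9, 3 rose by the test used here, limma with Benjamini-Hochberg adjustment over all tested probe sets and a threshold of 0.05: WRKY38, WRKY46 and WRKY6. WRKY6 entered the test only through its infested arrays, and of the other 8 genes 2 rose. Among all tested probe sets 2.83% rose, and 0 of the 9 fell, against 2.54% of all. At an unadjusted limma p under 0.05, 7 of the 9 and 14.1% of all tested probe sets were higher. The median change of the 9 was 1.24 on the log2(signal + 16) scale, from 0.34 for WRKY70 to 2.09 for WRKY38, beside a median of 0.04 over all tested probe sets. A second fit took each pair of same-numbered arrays as a block (the replicate block), because by the series text infested and control pools came from the same experiments. With it 7 of the 9 rose, all but WRKY70 and WRKY33, where 9.19% of all tested probe sets did. Again 0 of the 9 fell, where 10.3% of all did. That fit has 1 residual degree of freedom per probe set and borrows 7.26 from the other probe sets, against 2 and 3.66 without the block. The number of arrays limits the precision throughout, and with 2 arrays against 2 the smallest two-sided p of an exact permutation test is 0.333.

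**Figure D1:**
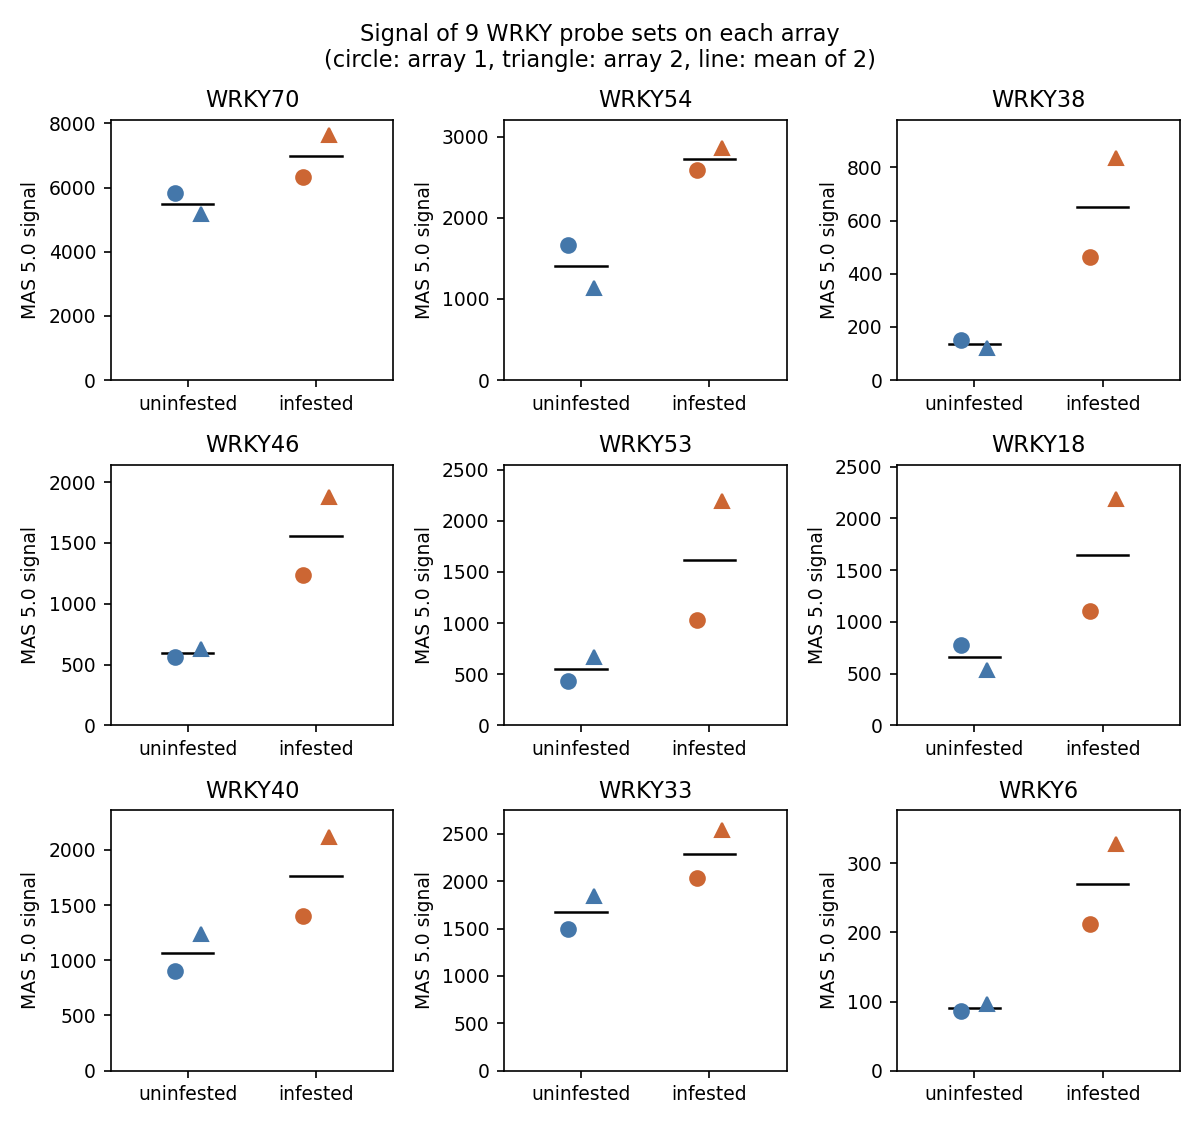
MAS 5.0 signal (linear scale from 0, one axis per gene) of the 9 WRKY probe sets on the 2 uninfested (blue) and 2 infested (orange) arrays; circles are array 1, triangles array 2, and the line is the mean of 2. In each panel both infested points lie above both uninfested points, and infested 2 is the highest.

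After the authors' scaling every array had a mean signal of 500.0 once its top and bottom 2% were trimmed, and the median signal ran from 185.25 to 205.2. The lowest signal of any of the 9 WRKY probe sets was 85.9, above the highest value of 52.1 among 27 controls for bacterial transcripts that were not added. The leaf marker RCA, for Rubisco activase, read between 17614 and 21392 on the 4 arrays. Of 5 listed leaf mesophyll markers only this 1 had a named probe set here. Of 3 listed guard cell markers 2 had a named probe set. GC1 fell (log2 change -0.98, limma adjusted p = 0.0411), where 2.54% of all tested probe sets did. FMA did not pass (log2 change -0.36, limma adjusted p = 0.386). The listed markers of trichomes, phloem, roots and flowers had no named probe set here and were not analysed. Ratios of 3' to 5' signal, a sign of RNA integrity, lay above both uninfested arrays on both infested arrays for 2 of 6 control pairs and below them for 3. The shifts differed in size: Athal-Actin went from 2.70 and 3.88 to 5.70 and 6.56. Of the 3 that went the other way, Athal-Ubq went from 2.77 and 2.34 to 2.08 and 1.87. A second actin pair, r2-At-Actin, overlapped, with 1.43 and 1.42 against 1.31 and 1.43. In whole leaves, more cells of a type and more RNA per cell cannot be told apart, and the part of guard cells or of RNA integrity in the WRKY changes was not tested.

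WRKY70 (AT3G56400, probe set 251705_at) activates genes that respond to salicylic acid and represses genes that respond to jasmonic acid. Uninfested leaves gave signals of 5828 and 5168, and infested leaves 6338 and 7627. The groups were separated only narrowly, since infested 1 was 1.09 times uninfested 1. The mean went from 5498 ± 467 (SD, n = 2) to 6982 ± 911, a log2 change of 0.34 ± 0.16 (SE) with a 95% interval from -0.06 to 0.74, and 0.21 without infested 2. It did not pass (limma adjusted p = 0.230, and 0.201 with the replicate block), and 23.4% of tested probe sets had a change at least as high.

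WRKY54 (AT2G40750, probe set 257382_at), the closest relative of WRKY70, acts with it to hold back both salicylic acid synthesis and leaf senescence. Signals of 1664 and 1141 in uninfested leaves stood against 2595 and 2866 in infested ones. Here the 2 infested arrays were close to each other, 1.10-fold apart, and the uninfested arrays were 1.46-fold apart. The log2 change was 0.98 ± 0.22 (SE), or 1.97-fold on that scale with an interval from 1.34 to 2.89. Its limma adjusted p was 0.0639, and it passed with the block (adjusted p = 0.0131).

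WRKY38 (AT5G22570, probe set 249890_at), which with WRKY62 limits basal resistance to bacteria, showed the largest change of the 9. It read 151.4 and 119.1 in uninfested leaves, against 463.3 and 836.2 in infested ones. Every infested value was at least 3.06 times every uninfested value. The mean signal rose from 135.2 ± 22.8 (SD, n = 2) to 649.8 ± 264, and the fold from the mean log2(signal + 16) was 4.25 with an interval from 2.50 to 7.22 (limma adjusted p = 0.0371, and 0.00249 with the block). Of the 13648 tested probe sets 110 had a higher log2 change. The fold depends on the pseudocount because the uninfested signals are dim: it was 4.61 with 1 and 3.47 with 64 in place of 16. The interval of the WRKY38 log2 change, 1.32 to 2.85, did not overlap that of WRKY70 or that of WRKY33.

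WRKY46 (AT2G46400, probe set 263783_at), which together with WRKY70 and WRKY53 supports basal resistance to Pseudomonas syringae, read 562.6 and 629.9 in uninfested and 1232 and 1878 in infested leaves. The uninfested arrays differed by 1.12-fold, the least of the 9, and the lowest infested value was 1.96 times the highest uninfested one. Its mean rose from 596.2 ± 47.6 (SD, n = 2) to 1555 ± 456, a log2 change of 1.33 ± 0.24 (SE; limma adjusted p = 0.0450, and 0.00302 with the block). The call was close to the threshold: it was lost with median scaling (adjusted p = 0.0507) and without the variance trend (0.0506).

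WRKY53 (AT4G23810, probe set 254231_at), a promoter of early leaf senescence, had the second-highest mean change and the widest spread. Uninfested signals were 437.3 and 665.7, and infested signals were 1034 and 2196. The infested arrays differed from each other by 2.12-fold and the uninfested ones by 1.52-fold, the largest gaps within each group among the 9. Its log2 change of 1.45 ± 0.40 (SE) was larger than that of WRKY46 but did not pass without the block (limma adjusted p = 0.0919). Since array 2 was the higher one in both groups, the changes within the pairs were closer together, 1.21 in pair 1 and 1.70 in pair 2, and with the block WRKY53 had the smallest adjusted p of the 9, 0.00243. Its mean change was 0.92 without infested 2 and 1.99 without infested 1.

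WRKY18 (AT4G31800, probe set 253485_at) and WRKY40 (AT1G80840, probe set 261892_at) encode related proteins that bind each other and that together dampen basal defence and abscisic acid responses. WRKY18 read 777.4 and 539.0 in uninfested leaves and 1106 and 2186 in infested ones. Its infested 2 value was 1.98 times its infested 1 value, while its uninfested 1 value was 1.44 times its uninfested 2 value. With these opposite orders the change was 0.50 in pair 1 and 1.99 in pair 2, the widest gap between pairs among the 9. The mean log2 change was 1.24 ± 0.36 (SE; limma adjusted p = 0.102, and 0.0262 with the block), and it was 0.76 without infested 2 and 1.73 without infested 1.

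WRKY40 read 902.2 and 1234 against 1403 and 2117. The lowest infested value was 1.14 times the highest uninfested value, and the changes were 0.63 in pair 1 and 0.77 in pair 2. Its mean log2 change was 0.70 ± 0.27 (SE; limma adjusted p = 0.165, and 0.0235 with the block), and it was 0.41 without infested 2, 0.48 without uninfested 1 and 0.99 without infested 1. WRKY18 and WRKY40 differed in which uninfested array was higher, uninfested 1 for WRKY18 and uninfested 2 for WRKY40. Their mean changes differed by 0.54, and the intervals of the changes overlapped.

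WRKY33 (AT2G38470, probe set 267028_at) encodes a substrate of the kinases MPK3 and MPK6 that turns on camalexin synthesis and is needed against necrotrophic fungi. It had 1493 and 1846 in uninfested and 2029 and 2539 in infested leaves. The pairs were nearly equal, 0.44 and 0.46, the smallest gap between pairs among the 9. The log2 change was 0.45 ± 0.20 (SE) with an interval from -0.05 to 0.94 (0.29 without infested 2 and 0.30 without uninfested 1), and it passed neither without nor with the block (limma adjusted p = 0.211 and 0.0918). The fold of 1.36 had an interval from 0.97 to 1.92, which does not show that WRKY33 stayed level.

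WRKY6 (AT1G62300, probe set 264746_at), a senescence-associated and pathogen-responsive factor that also represses the phosphate exporter gene PHO1 and its own promoter, had the lowest signals: 85.9 and 96.3 in uninfested and 212.8 and 328.5 in infested leaves. Its lowest infested value was 2.21 times its highest uninfested value. The log2 change was 1.39 ± 0.26 (SE; limma adjusted p = 0.0460, and 0.00674 with the block). The uninfested mean lay below the level of the filter on dim probe sets, a signal of 116, so WRKY6 was tested only through its infested arrays; of the other 8 genes, 2 rose. Quantile normalization ended the WRKY6 call (adjusted p = 0.0536), and its fold was 2.89 with a pseudocount of 1 and 2.13 with 64.

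**Figure D2:**
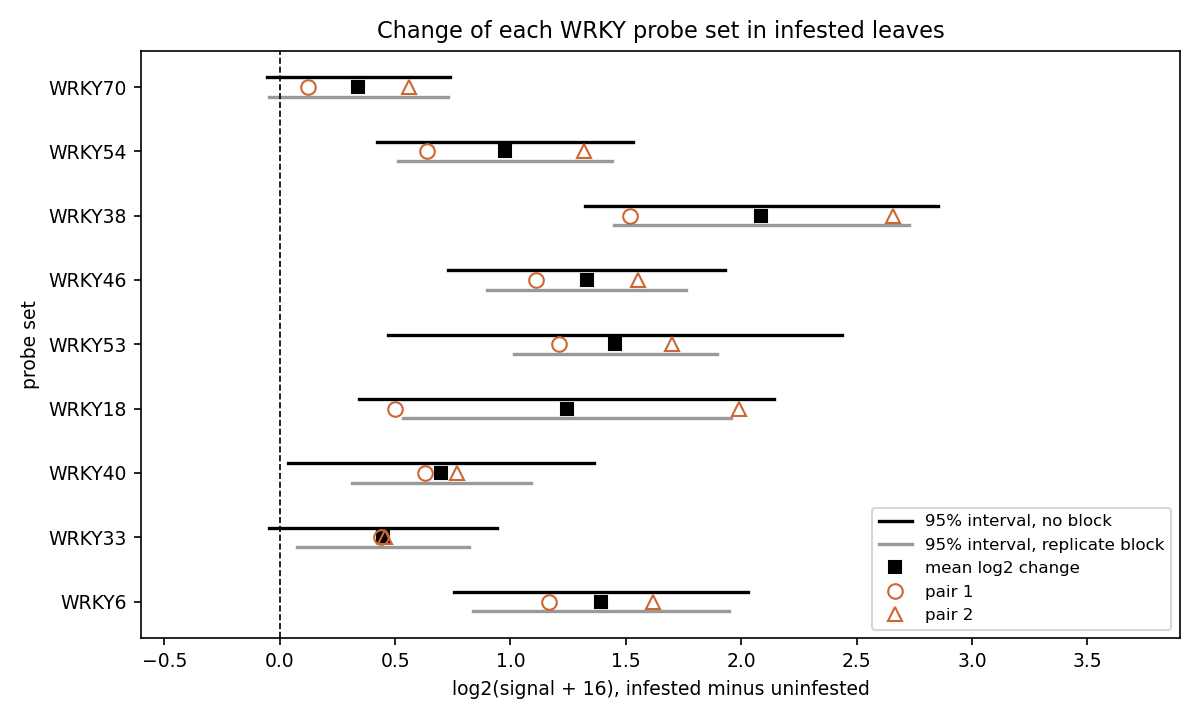
Log2(signal + 16) in infested minus uninfested leaves for each WRKY probe set: squares are means over 2 arrays per group, black and grey bars the 95% limma intervals without and with the replicate block, and open circles and triangles the changes in pair 1 and pair 2. The black bars of WRKY70 and WRKY33 include 0, and the triangle lies to the right of the circle for all 9, by as little as 0.02 for WRKY33.

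The 4 arrays fell in a shared order for the 9 genes. Infested 2 was highest and infested 1 second for 9 of 9, an order found in 22.9% of all tested probe sets. The uninfested arrays had no common order, with uninfested 1 higher for WRKY70, WRKY54, WRKY38 and WRKY18 and uninfested 2 higher for the other 5. Across all tested probe sets uninfested 1 was the higher in 48.3%.

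The change was larger in pair 2 for 9 of 9 genes, and for 60.9% of the 5579 tested probe sets that were higher in both pairs. In pair 1 the log2 change ran from 0.12 for WRKY70 to 1.52 for WRKY38, with a median of 0.64. In pair 2 it ran from 0.46 for WRKY33 to 2.66 for WRKY38, with a median of 1.55. All 9 genes were thus higher in infested leaves in each pair taken alone, as 40.9% of all tested probe sets were. For WRKY38 and WRKY6, 2 of the 9, each infested signal was at least 2-fold above each uninfested one, which held for 2.16% of all tested probe sets. WRKY6 was among the tested probe sets only through its infested arrays.

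Infested 2 also stood apart in the heat shock list. Without the block 0 of its 4 tested genes rose, where 2.83% of all tested probe sets did. The small heat shock gene HSP17.6 (AT1G53540) had 40.3 and 55.7 on the uninfested arrays, 124.5 on infested 1 and 11210 on infested 2. The co-chaperone gene FES1A had 504.4, 354.6, 467.8 and 5253 in the same order. With the block 1 of the 4, HSP17.6, rose (limma adjusted p = 0.0249), where 9.19% of all tested probe sets did. HSP17.6 and another gene of the list, HOP3, had mean uninfested signals of 48 and 57, below the filter level of 116. Both were tested only through their infested arrays. HSP22.0, also of the list, had 141.1 and 90.8 on the uninfested arrays, with a mean of 115.95 that lay at about the filter level. Between the infested arrays the 9 WRKY genes differed by 1.10-fold to 2.12-fold, with a median of 1.52, beside a median of 1.22 over all tested probe sets. Without infested 2 the same 3 genes rose, 3 of 9 against 4.67% of all tested probe sets, and the median change of the 9 was 0.91 in place of 1.24. The part of whatever set infested 2 apart in the larger changes of pair 2 was not tested.

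**Figure D3:**
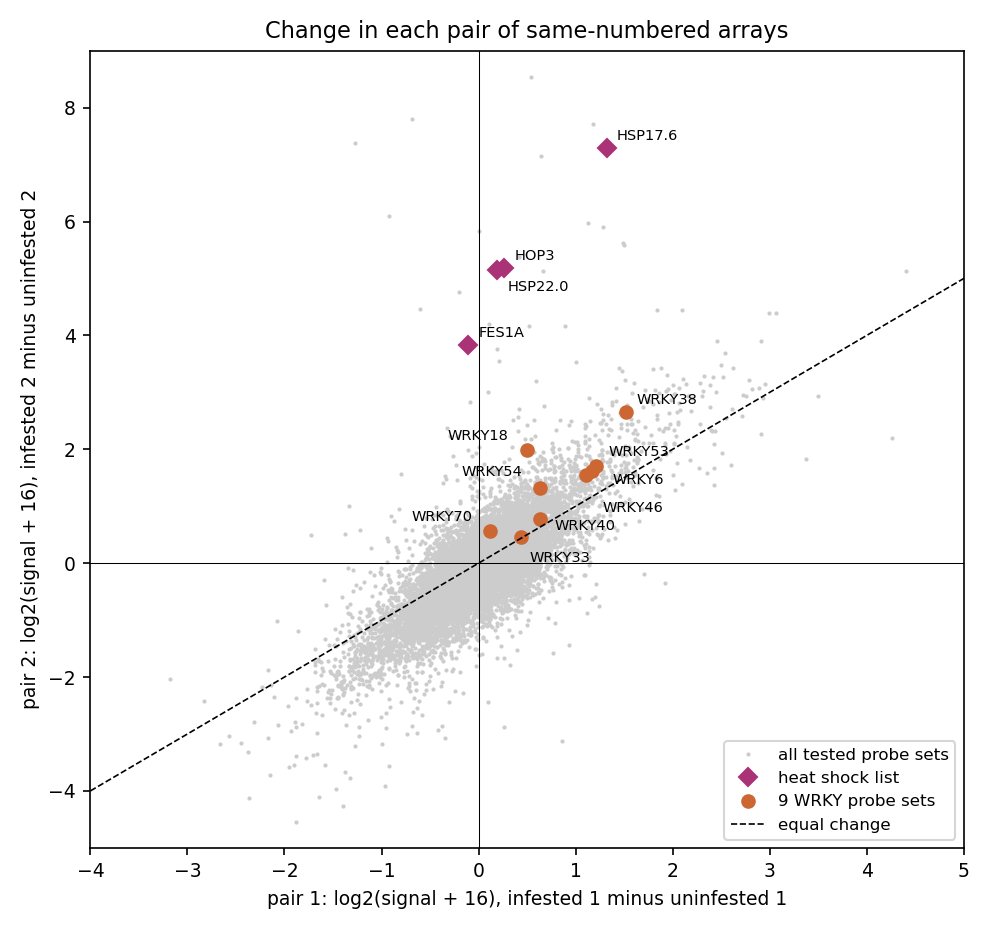
Log2(signal + 16) in infested minus uninfested leaves within pair 2 (vertical) against pair 1 (horizontal) for all 13648 tested probe sets (grey), the 9 WRKY probe sets (orange) and the 4 tested heat shock genes (purple diamonds); the dashed line marks equal change. The WRKY points lie on or above the line, while the heat shock genes have pair 2 changes of 3.83 to 7.29 with pair 1 changes of -0.11 to 1.32.

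The calls depended on which arrays were kept. Without uninfested 1, 0 of the 9 WRKY genes and 0 of all probe sets rose by limma, and at an unadjusted p under 0.05 there were 5 of the 9 and 6.06% of all. Without uninfested 2 these counts were again 0 and 0, with 6 of the 9 and 7.17% of all unadjusted. Without infested 1 all 9 rose, with 15.1% of all probe sets. These fits take their spread from the group that keeps both arrays, and the log2 differences between the 2 infested arrays had an SD of 0.526 against 0.280 between the uninfested ones. The mean changes moved as well: the median of the 9 was 1.25 without uninfested 1 and 0.99 without uninfested 2. It was 1.63 without infested 1 and 0.91 without infested 2, fits that both take their spread from the uninfested arrays. What moved the calls was not tested.

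**Figure D4:**
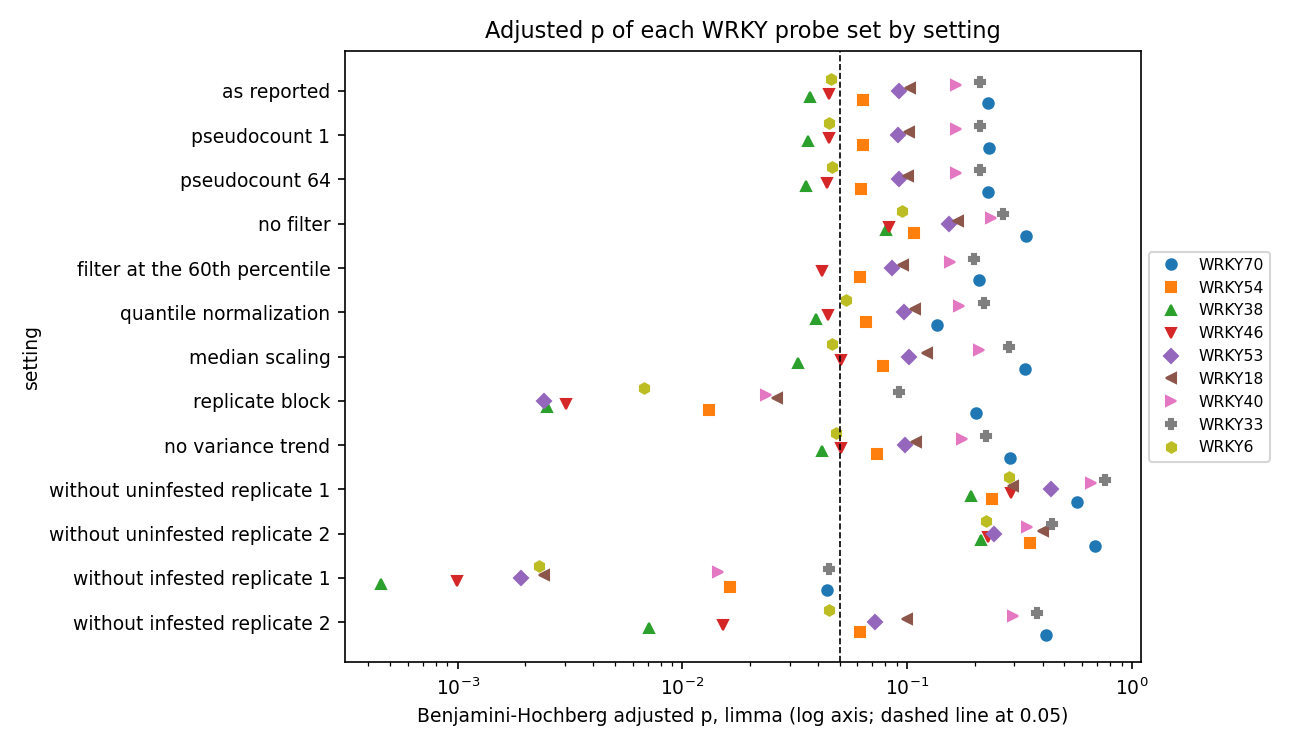
Benjamini-Hochberg adjusted p (log axis, dashed line at 0.05) of each WRKY probe set by limma under the reported setting and each alternative; WRKY38 and WRKY6 have no point at the 60th percentile filter, which they did not pass. All points lie right of the line with no filter and without either uninfested array, and all lie left of it without infested 1.

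Within the 9 genes, profiles over the 4 arrays were compared after centring each on its own mean, which leaves the level of a probe set out. WRKY46 and WRKY6 were the most alike, with a root mean square distance of 0.032 on the log2 scale. That distance was smaller than those of WRKY46 and WRKY6 to their nearest genes among 7363 named probe sets, AT3G49790 (0.043) and AT5G10740 (0.050). WRKY40 and WRKY33 came next at 0.165. The least alike were WRKY70 and WRKY38 at 0.897, whose changes differed by 1.75. Every member other than WRKY46 and WRKY6 lay closer to a named gene outside the 9 than to any other member. For these members the nearest outside gene was at 0.017 to 0.086, and the closest member at 0.165 to 0.392. All 36 pairs share the same 4 arrays, so these distances describe the arrays and are no test.

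The mean centred profile of the 9 was -0.56, -0.55, 0.25 and 0.85 on uninfested 1, uninfested 2, infested 1 and infested 2. Of the named probe sets outside the 9, AT2G27660 was nearest to it, at a distance of 0.036, with signals of 114.2, 122.4, 217.2 and 352.8 on the same arrays. AT1G28190 (0.055), AT1G69840 (0.064), AT1G29240 (0.066) and AT2G01540 (0.069) followed. Of these 5, AT1G28190 and AT1G69840 rose by limma (adjusted p = 0.0459 and 0.0484). The 5 were picked on the same arrays for closeness to a profile that is higher in infested leaves. Their calls follow in part from that choice and are no separate test of a rise. The gene nearest to WRKY38 was AT5G52740, at 0.059, which read 115.6 and 80.8 in uninfested and 365.3 and 646.4 in infested leaves. For the others the nearest genes were AT2G42450 (WRKY70, 0.029), AT4G16660 (WRKY54, 0.052), AT1G65000 (WRKY18, 0.086), AT1G21920 (WRKY40, 0.024), AT3G10250 (WRKY33, 0.017) and AT3G13672 (WRKY53, 0.085).

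**Figure D5:**
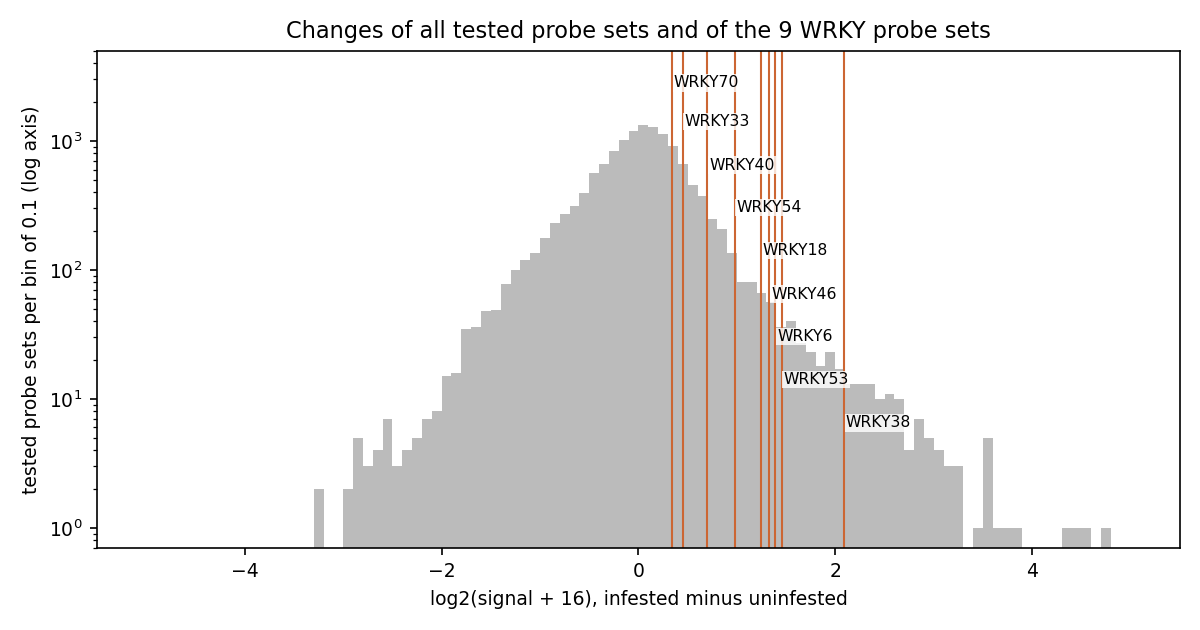
Number of tested probe sets (log axis) by change in log2(signal + 16), infested minus uninfested, in bins of 0.1, with vertical lines at the 9 WRKY probe sets. The lines run from 0.34 (WRKY70) to 2.09 (WRKY38), all right of the median of 0.04.

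Of 63 other WRKY genes in RefSeq, 5 had a probe set named here and 4 were tested. WRKY47 had signals of 209.4 and 257.5 against 571.6 and 690.6. It was the only one of the 4 to rise (limma adjusted p = 0.0360), where 2.83% of all tested probe sets did. It changed alike in both pairs, by 1.38 and 1.37. WRKY22, a factor of early immune signalling, had 0.09, WRKY20 had -0.13 and ZAP1, also called WRKY1, had 0.32, with limma adjusted p from 0.279 to 0.817. The median of the 4 was 0.21, beside 1.24 for the 9, and that difference was not tested. WRKY42 read 36.3 or less on every array and was too dim to test.

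Upstream of and beside these factors lies salicylic acid signalling. Of 23 genes in that list 4 were tested, and 3 of them rose, where 2.83% of all tested probe sets did: SAG101, a partner of EDS1 in resistance signalling, GRX480, a salicylic acid-induced glutaredoxin gene, and UGT76B1, whose enzyme glucosylates salicylic acid. Their limma adjusted p was 0.0378, 0.0488 and 0.0334, and the median of the 4 changes was 1.51. UGT76B1 read 70.2 and 31.0 in uninfested leaves, below the filter level, and was tested only through its infested arrays, so 2 of the other 3 rose. Without uninfested 1 or without uninfested 2, 0 of the 4 rose. GRX480 also lost its call under quantile normalization (adjusted p = 0.0516), median scaling (0.0523) and without the variance trend (0.0546). EDS1B, a close copy of the immune regulator gene EDS1, had signals of 344.1 and 256.2 in uninfested and 487.3 and 677.5 in infested leaves, a log2 change of 0.92 ± 0.24 (SE; limma adjusted p = 0.0846, and 0.0307 with the block). Probes may not tell EDS1B from EDS1. GRX480 resembled the WRKY genes in having a larger change in pair 2, 2.53 against 1.37 in pair 1, whereas SAG101 had 1.10 and 1.04.

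Of 10 genes reported as targets of the 9, only the defensin gene PDF1.2, an ethylene and jasmonate marker repressed through WRKY70, was tested. It read 701.6 and 858.2 in uninfested and 355.8 and 452.7 in infested leaves, a log2 change of -0.92 ± 0.20 (SE; limma adjusted p = 0.0589, and 0.00999 with the block). Probes may not tell it from its near-identical copies. It was also the 1 tested gene of the 12 in the jasmonate response list. In the senescence list of 13 genes 0 were tested; SAG29, a sugar exporter gene also called SWEET15, was below the filter with 78.3 and 20.4 in uninfested and 258.5 and 128.8 in infested leaves. Of 14 kinases and partner proteins of WRKY factors, 0 had a named probe set here. The 3 tested reference genes had changes of 0.24 (PEX4), 0.31 (TIP41L) and -0.13 (AT2G28390), so the change of WRKY70, 0.34, was close to that of TIP41L.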

How the data were processed

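The authors deposited 1 signal intensity per probe set and array, computed with MAS 5.0 at its standard parameters, per the series text and labels; the values are linear, and the software build is not given in the sources used here. Of 22810 probe sets, 64 controls were left out. No normalization was added. On log2(signal + 16), the 13648 probe sets with a mean at or above the 40th percentile entered a limma fit (version 3.58.1, R 4.3.3, with lmFit and eBayes with trend). The fit was tried on simulated data first, where it called 56% of log2 changes of 2 and 86% of log2 changes of 4. P-values measure the spread between pools. The 9 members, the gene lists and the tests were chosen with earlier results of these data known. Gene names came from the platform annotation, updated to RefSeq assembly TAIR10.1 (13513 with 1 gene); of 103 list genes, 17 had a named probe set and 15 were tested. Named genes were the 9 members, other WRKY genes called or of smallest p, up to 4 tested genes per list, and the genes of nearest profile. Same-numbered arrays were paired from the series text; their deviations correlated at 0.264 over probe sets. Alternatives were the pseudocount, filter, scaling, variance trend, block and leaving out each array.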

Additional observations from a re-analysis of the deposited data

How the results depend on the processing

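All 9 log2 changes stayed positive under every alternative in which they were tested. With no filter limma called 0 members higher, 0 and 0 of all probe sets higher and lower, 0 other WRKY genes, and 0 list genes in either direction; with a filter at the 60th percentile, which tested 9099 probe sets (310 higher, 338 lower), 1 of 7 members (WRKY46, as WRKY38 and WRKY6 were not tested) and 1 list gene (GRX480, as SAG101 and UGT76B1 were not tested) rose. The replicate block gave 7 members higher, 1254 and 1403 probe sets, and 5 list genes higher and 2 lower, and moved no call of the other WRKY genes. Median scaling gave 342 probe sets higher and 589 lower in place of 386 and 347, and no variance trend gave 199 lower. Leaving out each array in turn gave 0 to 9 members higher, 0 to 2065 probe sets higher and 0 to 2487 lower, 0 to 1 other WRKY genes, and 0 to 8 list genes higher and 0 to 3 lower. Other pseudocounts changed no member's call. The filters changed the number of probe sets tested, and leaving out an array changed the group that supplied the spread. The cause of the moved calls was not tested. Signals near the level of absent transcripts limit dim genes such as WRKY42.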
